A study of Mus musculus with 2 samples.

Results

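Zinc transporters and metallothioneins were followed in immature mouse oligodendrocytes, as 10 genes out of the 18651 listed in at least 1 of 2 RNA sequencing libraries. The genes were Tmem163, the metallothioneins Mt1, Mt2 and Mt3, the exporter genes Slc30a1, Slc30a3 and Slc30a10, and the importer genes Slc39a8, Slc39a12 and Slc39a14. They were picked by symbol, with their values in this comparison already known, so their values here are a description. All 10 symbols were found in both libraries, and 9 of them reached the mean level of 1 CPM used for counts (CPM, reads per 1000000 reads of the library). The synaptic zinc exporter gene Slc30a3 did not.

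The control library came from wild type C57BL/6 mice and the Seh1cKO library from C57BL/6 mice labelled mutant, with a conditional knockout of Seh1l, a nuclear pore gene. Neither the driver of Cre nor the exons removed could be taken from the labels. In both groups, precursor cells were immunopanned from cortices of pups at postnatal day 4 to 7. They were expanded with PDGF-AA, CNTF, bFGF and NT3, then differentiated in triiodothyronine (T3, 60 nM) without PDGF-AA, bFGF and NT3, and sampled at day 2. Each group had 1 library, and the labels do not say how many animals were pooled. No test between genotypes was possible. Each interval below is an exact 95% Clopper-Pearson interval that covers counting error only, since each group had 1 library. These reads carry no molecular identifiers, so duplicate reads were counted as well, and the intervals may be too narrow.

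Zinc is held in the cell at a low free level by 3 kinds of protein. Slc39 proteins (ZIP) bring zinc into the cytosol, Slc30 proteins (ZnT) move it out of the cell or into organelles, and metallothioneins are small cysteine-rich proteins that bind zinc and copper. When free zinc rises, the zinc-sensing factor MTF-1 binds metal response elements in front of Mt1, Mt2 and Slc30a1. In the brain, Mt1, Mt2 and Slc39a12 are known as astrocyte-enriched genes, Mt3 as a metallothionein of neurons and astrocytes, and Slc30a3 as the gene that loads zinc into synaptic vesicles. Tmem163 is a zinc efflux protein first found in synaptic vesicles, and its human gene is linked to a hypomyelinating leukodystrophy.

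The start regions of 5 genes are shown because they hold letters matching the core of the metal response element, or lack them. Each runs from 250 bases before to 50 bases after the RefSeq start site (build GRCm38.p6), on the strand of the gene. Capitals mark the metal response element core in the 4 regions of Mt1, Mt2, Mt3 and Slc30a1, searched as TGCACNC and TGCGCNC on both strands. In Tmem163 capitals mark the E-box, searched as CANNTG, the class of site bound by basic helix-loop-helix factors such as Olig2, which the study's title names.
Mt1 (chr8:94178839-94179138, plus strand): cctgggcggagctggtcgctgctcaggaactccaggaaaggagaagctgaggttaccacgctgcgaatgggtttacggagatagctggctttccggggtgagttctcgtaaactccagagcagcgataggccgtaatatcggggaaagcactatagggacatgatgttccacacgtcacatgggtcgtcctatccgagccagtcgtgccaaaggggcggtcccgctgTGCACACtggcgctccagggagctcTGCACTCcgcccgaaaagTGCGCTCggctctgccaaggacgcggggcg
Mt2 (chr8:94172368-94172667, plus strand): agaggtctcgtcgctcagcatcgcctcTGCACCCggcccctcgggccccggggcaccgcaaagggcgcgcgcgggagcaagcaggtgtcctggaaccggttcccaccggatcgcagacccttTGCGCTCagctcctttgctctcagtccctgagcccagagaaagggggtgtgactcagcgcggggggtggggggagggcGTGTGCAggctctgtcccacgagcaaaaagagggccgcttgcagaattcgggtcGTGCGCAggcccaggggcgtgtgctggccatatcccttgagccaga
Mt3 (chr8:94152357-94152656, plus strand): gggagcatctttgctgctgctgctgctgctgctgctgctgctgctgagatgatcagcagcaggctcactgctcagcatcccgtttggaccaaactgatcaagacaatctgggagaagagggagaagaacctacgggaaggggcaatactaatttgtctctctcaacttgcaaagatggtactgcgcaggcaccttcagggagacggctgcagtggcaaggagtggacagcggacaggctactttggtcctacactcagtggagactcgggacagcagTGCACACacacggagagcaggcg
Slc30a1 (chr1:191906531-191906830, plus strand): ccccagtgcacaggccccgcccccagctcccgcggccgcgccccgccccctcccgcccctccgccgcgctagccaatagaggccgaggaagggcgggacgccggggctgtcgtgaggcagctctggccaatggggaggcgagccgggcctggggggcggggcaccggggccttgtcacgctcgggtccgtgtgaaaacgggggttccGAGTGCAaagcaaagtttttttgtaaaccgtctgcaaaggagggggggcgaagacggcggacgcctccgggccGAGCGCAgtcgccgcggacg
Tmem163 (chr1:127677972-127678271, minus strand): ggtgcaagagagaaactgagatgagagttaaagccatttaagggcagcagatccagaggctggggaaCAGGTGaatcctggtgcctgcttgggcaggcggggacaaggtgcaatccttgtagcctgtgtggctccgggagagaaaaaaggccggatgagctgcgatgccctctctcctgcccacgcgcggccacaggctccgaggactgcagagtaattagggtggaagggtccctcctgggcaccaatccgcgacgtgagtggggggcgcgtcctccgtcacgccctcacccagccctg

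The Mt2 region held 4 matches to the core, the Mt1 region 3, the Slc30a1 region 2 and the Mt3 region 1. The Mt3 match began after the start, at base 28. So did matches of Mt1 at bases 3 and 21, of Mt2 at base 5 and of Slc30a1 at base 31. The other matches in these regions lay before the start. Among all 32851 start regions of the same length, 25.7% held at least 1 match, 7.11% at least 2, 1.97% at least 3 and 0.517% at least 4. In the Slc30a10 region 3 matches were found, of which the pair farthest from the start overlapped on opposite strands. The Tmem163 and Slc39a12 regions held no match, and Slc39a8 and Slc30a3 held 1 match at 1 of their 2 start sites. Tmem163 had 1 E-box, and 72.3% of all start regions had at least 1. Mt1 and Mt2 also had 1 each, not marked above, and Slc39a12 and 1 Slc39a8 start site had 2 each. None was found in Mt3, Slc30a1, Slc30a3 and Slc30a10. RefSeq start regions were found for 9 of the 10 genes, all but Slc39a14. A match describes letters in these windows and is no evidence of binding. GENCODE places the start of its Mt2 model at base 94172664, downstream of the RefSeq start at 94172618, so distances from the start differ between annotations. For Mt1 the RefSeq gene span begins at 94178883, upstream of the start site used here at 94179089, and GENCODE gives 94179082. The matches found depend on the start site used.

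**Figure D1:**
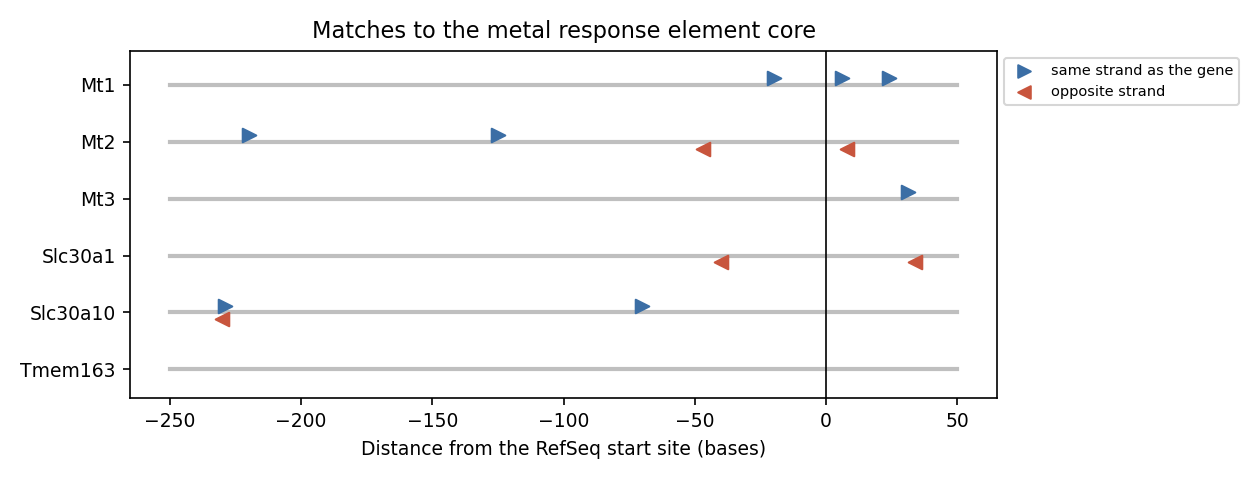
Matches to the metal response element core in the start regions of 6 genes, drawn by distance in bases from the RefSeq start site (0); blue triangles lie on the strand of the gene and red triangles on the opposite strand. The Mt2 region has 4 matches, Mt1 and Slc30a10 have 3 each, Slc30a1 has 2, Mt3 has 1 and Tmem163 has none.

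Tmem163 stood apart from the other zinc genes. It lies on chromosome 1 (127490342 to 127678021, Entrez 72160), and its transcript model matched to the deposited RefSeq identifier has 9 exons. It had 1443 reads in the control library, or 69.6 CPM, and 134 reads in the Seh1cKO library, or 6.50 CPM. The level in the Seh1cKO library was 10.7-fold lower (8.96 to 12.9). Per transcript length, on the deposited FPKM scale (reads scaled by transcript length and library size), it was at 27.5 in control and 2.57 in Seh1cKO.

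The difference of Tmem163 on the log2(CPM + 1) scale was -3.23, the 9th lowest value of the 13758 genes at a mean of at least 1 CPM, of which 8372 had higher and 5386 lower values in Seh1cKO. Among the 8 lower values were 4 genes of chromosome Y (Eif2s3y, Ddx3y, Kdm5d and Uty) and the myelin genes Mag and Mbp. Of the 13758 genes, 1.29% were at least 2-fold lower and 2.86% at least 2-fold higher on that scale (4.16% in either direction), and Tmem163 was the 1 member past 2-fold, in the lower direction. With the deposited FPKM values in place of CPM, 204 genes were higher and 148 lower, against 394 and 178. Since the genes were picked with this comparison known, nothing is read from the count of members. In the authors' deposited table of 896 genes, Tmem163 was the 1 member listed, with a log2 fold change of -3.42, the 32nd from the lowest of the 237 lower genes there. The false discovery rate printed there, 1.77e-273, comes from 1 library per group. The RefSeq gene table lists a transgene with an actin promoter driving Cre among the synonyms of Tmem163. The labels do not say which Cre the mutant line carried, and its bearing on the Tmem163 value was not tested.

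Premyelinating marker genes were lower in the same library. All 8 markers had lower values in Seh1cKO, 7 of them at least 2-fold, with a list median of -1.51 against 0.07 over all 13758 genes, and their summed level went from 2778 to 744 CPM. Of these, Bcas1, an early myelinating oligodendrocyte gene, was at 1858 and 417 CPM, and Enpp6, a choline phosphodiesterase of newly forming oligodendrocytes, at 33.4 and 4.95 CPM. Of 9 measured myelinating markers 8 were at least 2-fold lower, and Mal, a myelin membrane gene, went the other way, from 0.965 to 3.50 CPM, 3.62-fold higher (2.18 to 6.28). Of 8 precursor markers 5 had higher and 3 lower values, with a median of 0.20. Of the 8, 6 were within 2-fold and 2 at least 2-fold lower, and their summed level was 2821 and 2986 CPM. The most abundant were Olig1 (864 and 873 CPM), Ptprz1 (488 and 657 CPM) and Olig2 (496 and 648 CPM). The 2 at least 2-fold lower were C1ql1, at 53.9 and 20.4 CPM, and Sox10, a transcription factor of the whole oligodendrocyte lineage, at 426 and 207 CPM. In bulk RNA, fewer cells of a stage and less RNA per cell cannot be told apart.

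**Figure D2:**
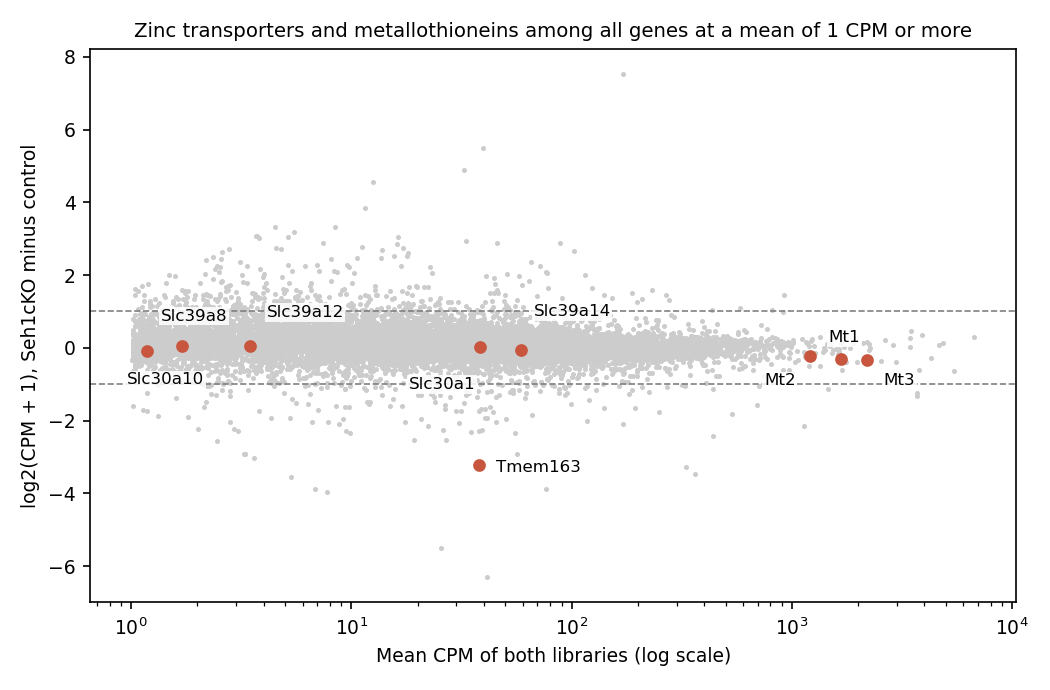
Difference in log2(CPM + 1), Seh1cKO minus control (vertical axis), against mean CPM of both libraries (horizontal axis, log scale) for the 13758 genes at a mean of at least 1 CPM (grey) and the 9 measured zinc genes (red, named); dashed lines mark 2-fold. Tmem163 sits at -3.23, and the other 8 named genes lie between -0.33 and 0.06.

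Genes that flank Tmem163 did not share its difference. Of the 5 measured genes on each side, 9 of 10 were within 2-fold, as were 13186 of all 13758 genes. The ratios of the 10, Seh1cKO over control, ran from 0.602 to 2.63. The exception was Mgat5, a glycosyltransferase gene that branches N-glycans, whose end lies 2.01 kb from the end of Tmem163 in RefSeq. Mgat5 went the other way, from 2.89 CPM in the control library to 7.62 CPM in the Seh1cKO library, a ratio of 2.63 (1.94 to 3.61). In GENCODE, Mgat5 exons on the opposite strand cover 140 of the 2657 exonic bases of the matched Tmem163 model. The deposited Tmem163 model carries a RefSeq identifier and a length of 2517 bases, and in RefSeq the spans of the 2 genes do not overlap. No source used here says whether counting used strand or took in that stretch. Ccnt2, on the other side at 96.1 kb, was at 20.4 and 20.7 CPM. The lowest ratio among the neighbours was that of Gpr39, a zinc-sensing receptor gene 1616 kb away, at 5.16 and 3.11 CPM, 1.66-fold lower (1.21 to 2.30).

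**Figure D3:**
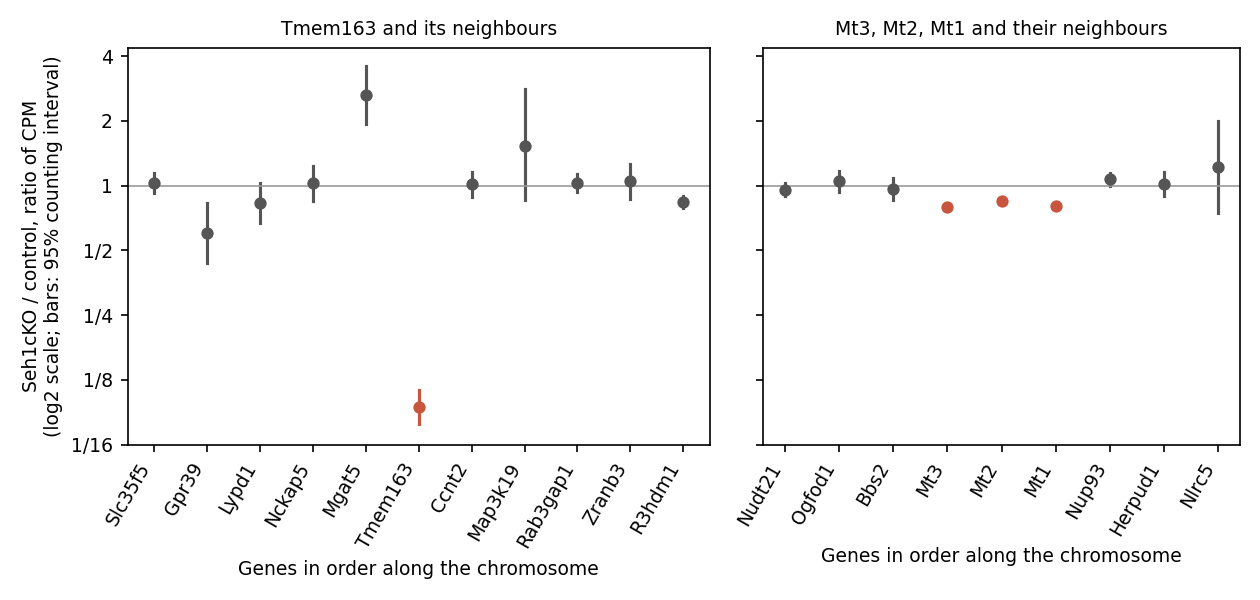
Ratio of CPM, Seh1cKO over control (log2 scale), for Tmem163 with 5 measured genes on each side (left) and for Mt3, Mt2 and Mt1 with 3 on each side (right), in order along the chromosome; red marks the zinc genes and bars are 95% counting intervals. Tmem163 is at 0.0935 while its neighbours lie between 0.602 and 2.63, and the 3 metallothioneins lie at 0.798 to 0.852 while their neighbours lie between 0.959 and 1.22.

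The metallothioneins were among the most abundant transcripts of both cultures. Mt3, a brain metallothionein also known as growth inhibitory factor, was the 2nd highest gene by FPKM in control, at 4765, and the 4th in Seh1cKO, at 3804. Mt1 was the 6th and the 9th, at 3314 and 2676 FPKM, and Mt2 the 12th and the 13th, at 2462 and 2098 FPKM. The order Mt3, Mt1, Mt2 was the same in both libraries. The fourth gene of the cluster, Mt4, known from stratified epithelia, had 0 reads in control, which allows up to 0.145 CPM, and 1 read in Seh1cKO.

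All 3 abundant metallothioneins were slightly lower in the Seh1cKO library. Mt3 had 50491 and 40048 reads, or 2436 and 1944 CPM, 1.25-fold lower (1.24 to 1.27). Mt1 was at 1846 and 1491 CPM, 1.24-fold lower (1.22 to 1.26), and Mt2 at 1304 and 1111 CPM, 1.17-fold lower (1.15 to 1.19). The intervals are narrow because the counts are large, and hold no variation between cultures.

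Together the 3 genes took 0.559% of control reads (0.555% to 0.562%) and 0.455% of Seh1cKO reads (0.452% to 0.457%). The makeup of that pool was nearly the same, with Mt3 at 43.6% and 42.8%, Mt1 at 33.0% and 32.8%, and Mt2 at 23.3% and 24.4%. The 3 genes lie on chromosome 8 with 26.5 kb between the start sites of Mt3 and Mt1, and each model has 3 exons. The nearest 3 measured genes on each side, with the nucleoporin gene Nup93 34.2 kb away at 70.6 and 75.3 CPM, had ratios from 0.959 to 1.22. The longest exact run shared by any 2 of the 3 transcripts was 27 bases, between Mt1 and Mt3, and their deposited counts were whole numbers in both libraries. An antisense gene model overlaps exons of Mt2, and reads from it cannot be told apart without strand.

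Astrocyte markers were abundant in the same cultures and mostly lower in Seh1cKO. Of 12 markers, 10 had lower values, 2 of them at least 2-fold, with a median of -0.23, and their summed level was 13111 CPM in control and 8749 CPM in Seh1cKO, a ratio of 0.667. Without Gfap, left out after its value was seen, the sum was 7911 and 6535 CPM, a ratio of 0.826. The summed metallothionein level had a ratio of 0.814. How near these 2 ratios lie depends on leaving out Gfap, so nothing is read from it. Gfap, the astrocyte intermediate filament, was at 5200 and 2214 CPM. The other marker at least 2-fold lower was S100b, at 80.4 and 19.9 CPM. Atp1b2, a sodium pump subunit, was at 2873 and 2228 CPM. Slc1a3, which takes up glutamate, was at 1227 and 1072 CPM. The 2 markers with higher values were Aldh1l1, a folate enzyme gene, 1.17-fold higher (1.13 to 1.20), and Gja1, which encodes an astrocyte connexin, 1.40-fold higher (1.33 to 1.48). No astrocyte marker was at 0. The part of astrocyte RNA in the metallothionein values was not tested.

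Markers of other cells differed as well. Fibroblast and mural markers were higher in Seh1cKO in 11 of 12 cases (summed level 310 and 772 CPM). Cspg4, at 98.8 and 148 CPM, is on this list and on the precursor list, so it counts in both sums. Of 7 measured epithelial and mesothelial markers, 6 were at least 2-fold higher (summed level 11.1 and 204 CPM). Epcam, the 1 with a lower value, was at 7.91 and 7.04 CPM. Endothelial markers summed to 27.2 and 57.8 CPM, with the tight junction gene Cldn5 at 0 and 1 reads. The endothelial cadherin gene Cdh5 was at 1.01 and 13.8 CPM, 13.6-fold higher (8.73 to 22.3). It was the 1 endothelial marker of 5 measured past 2-fold on the log2(CPM + 1) scale. Slco1c1, the most abundant, was at 16.1 and 32.3 CPM, and Kdr, the 1 with a lower value, at 5.35 and 4.95 CPM. Microglia markers summed to 8.39 and 18.0 CPM. Of 7 markers 4 were measured, all 4 with higher values, and Aif1, below the floor, had 12 and 4 reads. Of 8 neuron markers 6 had higher values, with a median of 0.70, among them Stmn2 at 28.7 and 58.7 CPM. Their sum, 427 and 460 CPM, was carried by Tubb3 (91.0 and 79.6 CPM) and above all by Map2 (279 and 270 CPM). Seh1l itself was at 32.1 and 18.5 CPM. Eif2s3y of chromosome Y had 1705 and 1 reads, and Xist of chromosome X had 18 and 7025 reads. Genotype and sex of the cells therefore cannot be told apart here, for any gene. The part of these differences in the zinc genes was not tested.

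Of the zinc exporter genes, Slc30a1, which encodes the exporter of the plasma membrane and is a known MTF-1 target, was level between the libraries. It had 787 reads in control and 790 in Seh1cKO, or 38.0 and 38.4 CPM, a ratio of 1.01 (0.914 to 1.12). Slc30a10, known chiefly as a manganese exporter, was near the floor, with 26 and 23 reads and a ratio of 0.890 (0.485 to 1.62), so no difference was detectable at this depth. Slc30a3 had 2 reads in each library, too few for a ratio. Antisense models overlap exons of Slc30a1 and Slc30a10.

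The other exporter genes were also within 2-fold. Slc30a9, the most abundant of the family at 42.9 and 36.4 FPKM, was 1.17-fold lower (1.11 to 1.24), and Slc30a5, an exporter of the secretory pathway, was at 17.2 FPKM in both libraries. Slc30a4 was 1.28-fold higher (1.16 to 1.41). Slc30a2 had 0 reads in control and 3 in Seh1cKO, and Slc30a8, the zinc transporter of insulin granules, was set to 0 in both. Over the 7 measured Slc30 genes, all 7 were within 2-fold, with a median log2(CPM + 1) difference of -0.08. Of all 13758 genes, 13186 were within 2-fold.

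Of the importer members, Slc39a14, which carries zinc, iron and manganese, was the most abundant. It had 1243 and 1193 reads, or 60.0 and 57.9 CPM, a ratio of 0.966 (0.891 to 1.05). Slc39a12, an importer known from astrocytes, had 70 and 73 reads, a ratio of 1.05 (0.746 to 1.48). Slc39a8, a close relative of Slc39a14 with the same metals, had 34 and 36 reads, a ratio of 1.07 (0.648 to 1.76). All 3 intervals include equal levels, which does not show that the levels were equal.

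Among the other importer genes, the housekeeping-type Slc39a1 and the organelle importer Slc39a7, which releases zinc from the endoplasmic reticulum, were the most abundant. Slc39a1 was at 145 and 126 FPKM, 1.15-fold lower in CPM (1.11 to 1.19), and Slc39a7 at 130 and 121 FPKM, 1.06-fold lower (1.02 to 1.10). The highest ratio of either family was that of Slc39a4, the intestinal-type importer, at 7.38 and 11.9 CPM, 1.62-fold higher (1.32 to 1.99). Slc39a10 was 1.30-fold higher (1.17 to 1.44), and Slc39a13, of the secretory pathway, 1.21-fold higher (1.11 to 1.33). Slc39a2 (18 and 11 reads) and Slc39a5 (1 read in each) were below the floor.

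Of the 18 Slc30 and Slc39 genes outside the 10 described, 14 were measured. Of all 13758 genes, 13186 were within 2-fold, as were all 14, 7 with higher and 7 with lower values in Seh1cKO. Their median was 0.03, against 0.07 over all genes, and it turned to -0.05 after rescaling by the median of ratios and to -0.02 by the upper quartile. Summed over the family, Slc39 genes were at 382 FPKM in control and 366 in Seh1cKO, and Slc30 genes at 85.9 and 80.5.

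**Figure D4:**
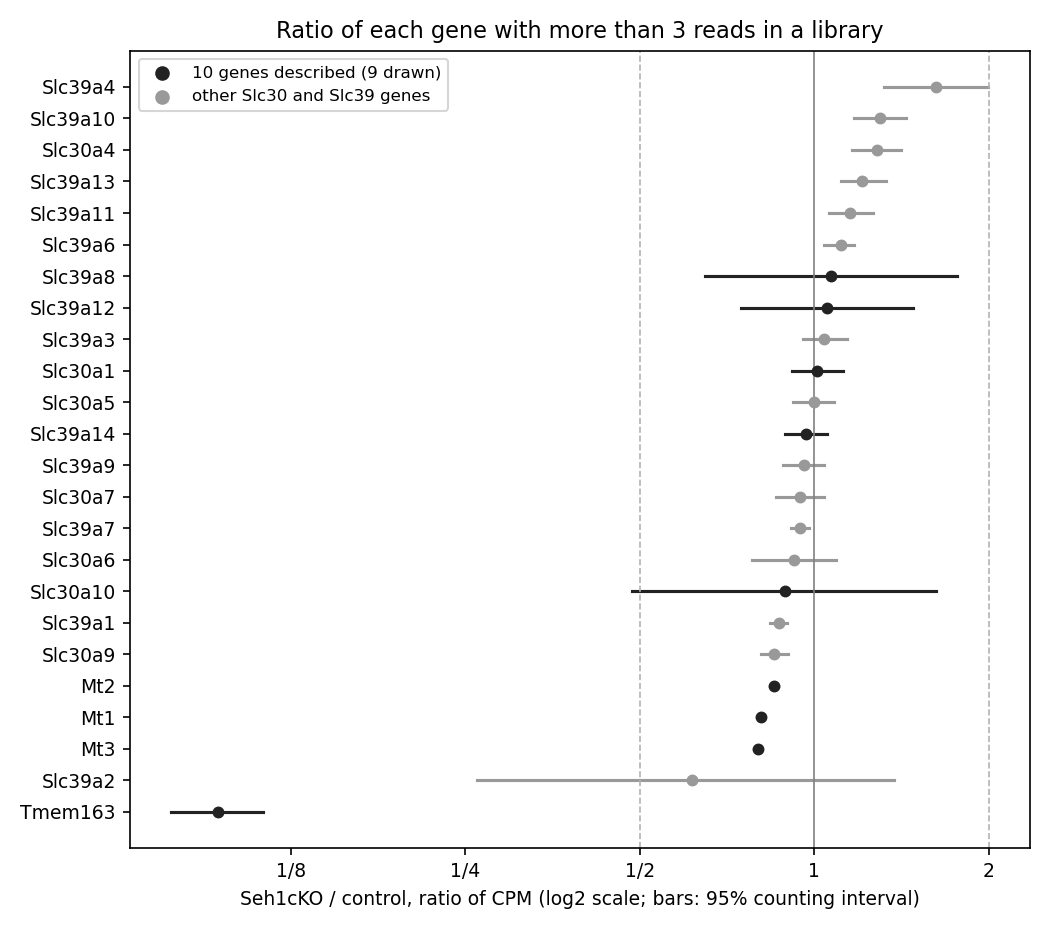
Ratio of CPM, Seh1cKO over control (log2 scale), with 95% counting intervals for the zinc genes with more than 3 reads in a library; black points are 9 of the 10 genes described and grey points the other Slc30 and Slc39 genes, and dashed lines mark 2-fold. Tmem163 at 0.0935 is below 1/8, and the other genes lie between 0.615 (Slc39a2) and 1.62 (Slc39a4).

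Per transcript length, the members of this set spanned the whole range of expression. In control the order by FPKM was Mt3, Mt1, Mt2, Tmem163 at 27.5, Slc39a14 at 12.1, Slc30a1 at 7.17, Slc39a12 at 1.24, Slc39a8 at 0.480, Slc30a10 at 0.210 and Slc30a3 at 0.0500. In Seh1cKO Tmem163, at 2.57, stood below Slc39a14 at 11.6 and Slc30a1 at 7.24, and the rest kept their places. With 1 library per group there is no spread over samples against which neighbours in this order could be compared. The deposited FPKM values of the short metallothionein transcripts were 1.05 times the value computed from count, length and library total.

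**Figure D5:**
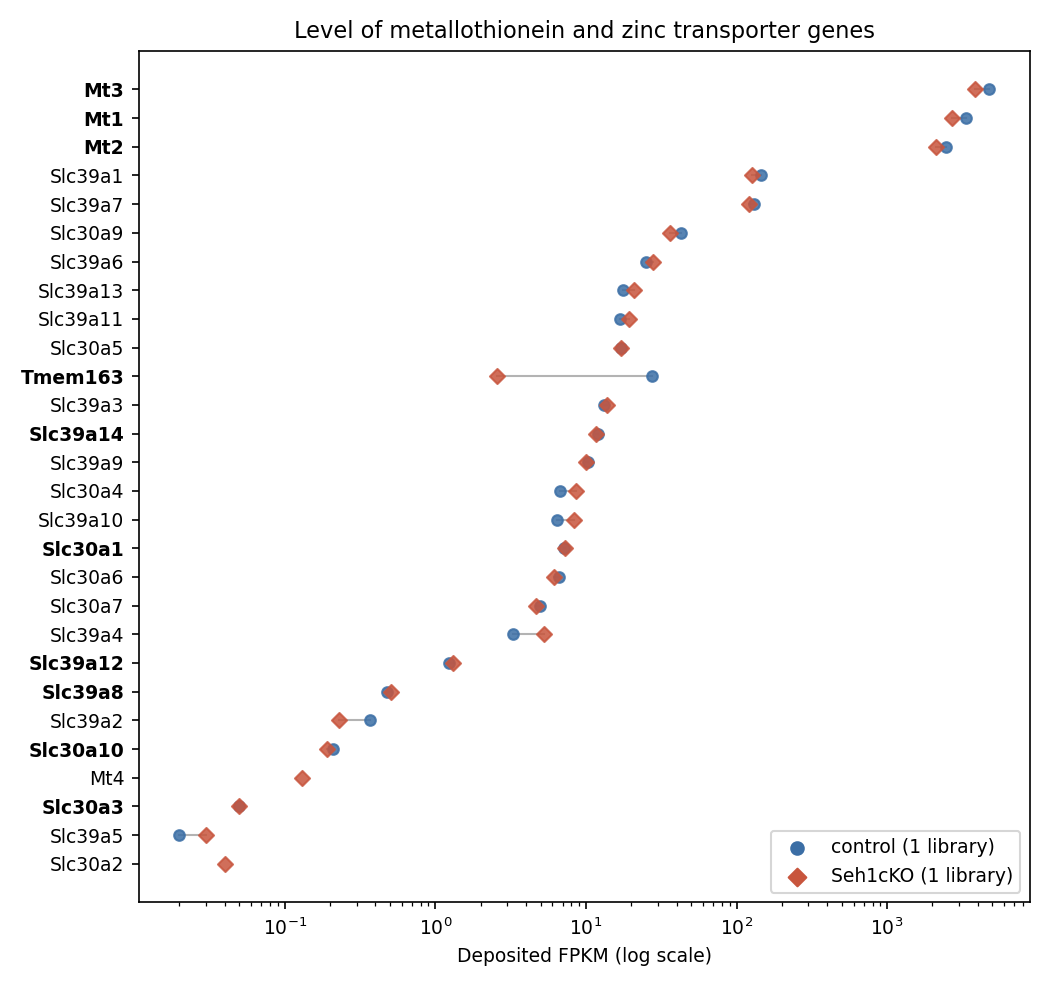
Deposited FPKM (log scale) of 28 metallothionein and zinc transporter genes in the control library (blue circles) and the Seh1cKO library (red diamonds), ordered by the mean of both; names in bold are the 10 genes described, and values of 0 (Mt4 and Slc30a2 in control) are not drawn. Mt3, Mt1 and Mt2 lie at 2098 FPKM or more in both libraries, and Tmem163 moves from 27.5 to 2.57.

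Of the other zinc handling genes on the list, Mtf1 and Trpm7 were nearly level and Gpr39 was lower, as given above. Mtf1, which encodes MTF-1, had levels of 33.5 and 35.3 CPM, with a ratio of 1.05 (0.949 to 1.17), and Trpm7, a zinc-permeable channel kinase, at 36.9 and 39.7 CPM, a ratio of 1.07 (0.973 to 1.19). The list also held Tmem175, a lysosomal ion channel gene, at 38.8 and 37.7 CPM, and Slc11a2, which encodes an importer of iron and other divalent metals, at 55.7 and 54.3 CPM. All 5 measured genes of the list were within 2-fold, as were 13186 of all 13758 genes, and the list median was -0.04.

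Copper and manganese handling genes, which share ligands or substrates with these proteins, were within 2-fold in 10 of 11 cases, with a median of -0.05. Of all 13758 genes, 13186 were within 2-fold. The iron exporter gene Slc40a1 (ferroportin), which also carries manganese, was at 1.45 and 3.98 CPM, 2.75-fold higher (1.79 to 4.33). The copper pump genes Atp7a and Atp7b were 1.37-fold higher (1.16 to 1.62) and 1.30-fold lower (1.01 to 1.67).

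Genes of other signals known to act on metallothionein genes were compared as well. Of 8 oxidative stress genes under Nrf2, 7 had higher values and all were within 2-fold, with a median of 0.27. Over all 13758 genes, 8372 had higher values and 13186 were within 2-fold. Txnrd1, thioredoxin reductase, was 1.45-fold higher (1.42 to 1.48), Nqo1, a quinone reductase, 1.44-fold higher (1.34 to 1.54) and Srxn1 1.25-fold higher (1.22 to 1.29). None of the 12 glucocorticoid and STAT3 genes passed 2-fold, and their median was 0.01; the list holds receptor and signalling genes (Nr3c1, Stat3, Cntfr, Lifr and Il6st) as well as targets. Targets of the glucocorticoid receptor went both ways. The kinase gene Sgk1 was 1.35-fold lower (1.26 to 1.45), while Fkbp5 and Tsc22d3 were 1.31-fold (1.22 to 1.42) and 1.33-fold higher (1.17 to 1.51). Of 8 hypoxia genes 5 had lower values, with a median of -0.42; Pdk1 was 2.42-fold lower (2.22 to 2.64), Bnip3 2.18-fold lower (2.05 to 2.32) and Adm 3.08-fold higher (2.78 to 3.43). The 2 libraries also differed in fibroblast and astrocyte markers, as given above.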

How the data were processed

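Expected counts and FPKM values per gene were deposited by the authors for 1 control and 1 Seh1cKO library, under Entrez identifiers. Per the submitters' processing notes, HTSeq, StringTie and the mm10 build were used, with no role given for either tool; no source used here names the aligner or the strand setting. The authors' deposited table adds log2 fold changes, p-values and false discovery rates from a test not named here.

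The deposited expected counts (29.3% and 29.5% not whole) were rounded and scaled to CPM; library totals were 20730114 and 20599590. Genes not listed in a library were set to 0, which allows up to 3 reads (0.145 and 0.146 CPM). Differences are log2(CPM + 1), Seh1cKO minus control, over genes at a mean of at least 1 CPM, with a 2-fold threshold; the pseudocount understates low genes. Single-gene folds are CPM ratios without pseudocount. Of 18651 identifiers, 18611 matched the RefSeq table of GRCm38.p6, the assembly of mm10; exons came from GENCODE M21. Interval coverage and 2-fold calls were tested on simulated data that held counting error only, so the simulation does not cover variation between cultures.

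The members and gene lists were chosen with earlier results of these data known. Named were all members, the 2 most abundant other genes of each family, the 3 genes of each pathway list with the largest difference, and the most abundant markers. Slc39a2, Slc39a4, Slc39a5, Slc39a10, Slc39a13, Slc30a2, Slc30a4, Slc30a8, Tmem175, Slc11a2, Enpp6, Mal, C1ql1, Sox10, Stmn2, Cdh5, Aldh1l1, Gja1, S100b, Xist, the receptor and signalling genes of the STAT3 list and the neighbouring genes were named, and Gfap was left out of the astrocyte sum, after their values were seen. Epcam, Aif1 and Hmox1 were also named after their values were seen. Not every gene the rule picks is printed. Alternatives were other pseudocounts, rescaling, FPKM, other floors and leaving out chromosomes X and Y. Python 3.11.15, pandas 2.3.3 and SciPy 1.17.1 were used.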

Additional observations from a re-analysis of the deposited data

How the results depend on the processing

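Tmem163 was the 1 member past 2-fold under all 8 alternatives, with a difference between -2.70 (pseudocount of 5 CPM) and -3.40 (0.1 CPM), and no member passed 2-fold in the higher direction under any. The metallothioneins had lower values in Seh1cKO under each alternative, and rescaling by the median of ratios moved Mt1 to -0.39, Mt2 to -0.31 and Mt3 to -0.40. No gene of the set whose interval lay apart from 1 changed sign. The count of all genes at least 2-fold higher moved from 394 to 637 with a pseudocount of 0.1 CPM, to 141 with 5 CPM, to 204 on the deposited FPKM scale and to 228 with a floor of 5 CPM. The count at least 2-fold lower moved from 178 to 116 with a pseudocount of 5 CPM. The share of higher genes among those past 2-fold was 68.9%, against 54.9% with a pseudocount of 5 CPM and 58.0% on the FPKM scale. Without a floor, Slc30a3 joined the measured genes, and with a floor of 5 CPM 6 members were left. A change of floor does not alter the value of a single gene. Depth limits Slc30a3, Slc30a10 and Slc39a8, whose counts were 36 reads or fewer in each library. No paired analysis was possible because each group had 1 library, and no library could be left out.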
